A study of Rattus norvegicus with 7 samples.

Results

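The renin-angiotensin genes and peptidases described here are Agt, Ace, Agtr1a, Enpep, Mme and Atp6ap2, found by their symbols among the 25399 genes of the deposited matrices. All 6 matched exactly 1 gene. They were followed across the cell classes of 7 single-nucleus RNA libraries of rat kidney. Of these, 3 libraries came from 1-kidney and 4 from 2-kidney rats, all aged 4 weeks and of the HSRA model, a line in which some animals are born with a single kidney. The protocol names 2 kinds of rat, HSRA-S (3 rats) and HSRA-C (4 rats), and the labels do not tie them to single libraries. Sex and treatment are not stated in those sources. Each library was taken as 1 animal, and its nuclei came from a central piece of kidney with cortex and medulla. How much of each it held is not given, and this bears on every share of nuclei.

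In the renin-angiotensin system, angiotensinogen (Agt) is the precursor from which angiotensin I is cut. Angiotensin converting enzyme (Ace) turns this into angiotensin II, which acts through its type 1 receptor (Agtr1a in rats) to constrict vessels and raise sodium uptake in the tubule. Aminopeptidase A (Enpep) shortens angiotensin II at its amino end, neprilysin (Mme) cleaves angiotensin I and many other small peptides, and Atp6ap2 is an accessory protein of the vacuolar proton pump.

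Each of 4 members had its highest level in a different class of nuclei, and their promoters are shown for that reason. The sequences are RefSeq's for the GRCr8 assembly, 250 bases before to 50 bases after the annotated start, written 5′ to 3′ along the gene. Capitals mark matches on either strand to the TATA box motif TATAAA, the CCAAT box motif CCAAT and the GC box motif GGGCGG, so a match on the opposite strand appears as its reverse complement. Overlapping matches are merged.
Agtr1a, chr17:34435383-34435682, minus strand: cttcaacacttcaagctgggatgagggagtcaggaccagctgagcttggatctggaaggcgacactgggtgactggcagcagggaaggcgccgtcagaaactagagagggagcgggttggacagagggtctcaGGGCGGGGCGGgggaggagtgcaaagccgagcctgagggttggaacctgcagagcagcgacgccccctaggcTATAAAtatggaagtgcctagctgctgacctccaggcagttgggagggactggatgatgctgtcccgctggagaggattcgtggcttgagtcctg
Enpep, chr2:220526169-220526468, minus strand: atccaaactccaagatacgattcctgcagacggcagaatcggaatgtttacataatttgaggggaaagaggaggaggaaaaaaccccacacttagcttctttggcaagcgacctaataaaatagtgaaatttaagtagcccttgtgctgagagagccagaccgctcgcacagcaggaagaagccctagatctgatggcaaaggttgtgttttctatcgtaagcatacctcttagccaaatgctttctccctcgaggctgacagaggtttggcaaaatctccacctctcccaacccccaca
Mme, chr2:149872247-149872546, plus strand: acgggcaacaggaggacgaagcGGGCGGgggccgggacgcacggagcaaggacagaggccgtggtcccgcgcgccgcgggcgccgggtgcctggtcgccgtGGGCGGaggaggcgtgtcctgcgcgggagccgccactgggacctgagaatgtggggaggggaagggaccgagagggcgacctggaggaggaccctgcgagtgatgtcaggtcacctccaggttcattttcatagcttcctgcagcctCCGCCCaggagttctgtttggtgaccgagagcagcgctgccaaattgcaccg
Atp6ap2, chrX:12883621-12883920, minus strand: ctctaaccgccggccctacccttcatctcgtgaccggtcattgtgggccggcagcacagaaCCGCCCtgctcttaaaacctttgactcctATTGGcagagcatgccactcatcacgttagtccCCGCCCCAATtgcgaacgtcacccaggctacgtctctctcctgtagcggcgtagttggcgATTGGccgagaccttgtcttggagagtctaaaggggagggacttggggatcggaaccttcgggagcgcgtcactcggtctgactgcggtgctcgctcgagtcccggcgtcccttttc
Of all 33469 promoters in the table, 14.22% held TATAAA, 37.49% CCAAT and 33.06% GGGCGG. The Agtr1a window held 1 TATAAA, starting 45 bases before the start site, and 2 overlapping GGGCGG matches. The Enpep window held none of the 3 motifs and had 47.0% G and C, against 68.7% in the Mme window, which held 3 GGGCGG matches and no TATAAA. The Atp6ap2 window held 3 CCAAT and 2 GGGCGG matches, of which 1 pair overlapped. GTTAAT, a half-site of the HNF1 motif found in 7.45% of promoters, was in none of the 4 windows. These matches describe the letters in these windows and were not tied to any measured level. The promoter table matched 5 of the 6 members, all but Agt.

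After filtering, 30978 nuclei with 122341137 UMIs (unique molecular identifiers, counts of captured RNA molecules) were retained. The libraries held 2240, 4372 and 4300 nuclei in 1-kidney replicates 1 to 3, and 3933, 4340, 5922 and 5871 in 2-kidney replicates 1 to 4. The 1-kidney libraries had 5491945 to 18121621 UMIs and the 2-kidney libraries 14962864 to 26488837. Clustering without the 6 members and 28 other pathway symbols gave 22 clusters, 18 of which carried markers of 15 cell classes. The remaining 4 clusters, with 20.34% of nuclei and 46.01% of UMIs, were left unnamed. The largest of these held 3093 nuclei with a median of 9423 UMIs and markers of several cell types. Among all barcodes, 166 sequences occurred in more than 1 library. Slc34a1, a phosphate transporter of the proximal tubule, stood at 2668 CPM (the UMIs of a gene scaled to a fixed total per class and library) in podocytes, its lowest class, which should not make it. Levels are also given as a ratio to all retained nuclei, beside the same ratio for Slc34a1, Slc5a12 and Slc7a13, all transcripts of the proximal tubule.

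Angiotensinogen transcripts were scarce, and their highest level was in the straight proximal tubule. Agt had 348 UMIs in all, of which 142 lay in straight proximal tubule nuclei, marked by Slc7a13 and Slc5a10, and 166 in unnamed clusters. Its level in the straight tubule was 7.53 ± 2.79 CPM (SD over the 7 libraries of both groups), against 2.84 ± 1.26 in all retained nuclei. In the convoluted tubule, marked by Slc5a12 and Slc4a4, only 2 UMIs were counted in 2451 nuclei. Podocytes had 0 UMIs, which allows a level of up to 0.914 CPM for their summed counts. The straight tubule was above the convoluted tubule in 7 of 7 libraries. Immune and mural nuclei came next in order at 5.16 ± 5.25 and 4.69 ± 12.4 CPM, but rest on 5 UMIs and 1 UMI and overlapped with the straight tubule. Nuclei with at least 1000 UMIs were thinned to 1000 UMIs each, and shallower nuclei were left out. Shares before thinning and median depths (the median of the library medians), here and below, are for the same nuclei. After thinning, 0.714% ± 0.341 of straight tubule nuclei held an Agt UMI, 2.34% ± 0.875 before thinning, and 0% of podocytes in either case. The median depth was 3139 UMIs in the straight tubule and 2545 in podocytes.

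Ace followed the same segment pattern. The converting enzyme had 334 UMIs, with 141 in the straight proximal tubule and 3 in the convoluted tubule. Its level was 7.84 ± 4.64 CPM in the straight tubule, against 0.350 ± 0.679 in the convoluted tubule, and it was higher in the straight tubule in 7 of 7 libraries. The straight tubule libraries ran from 1.52 CPM through a median of 8.50 to 14.2 CPM. Endothelium, where Ace is known from many vascular beds, gave 3.74 ± 3.74 CPM from 19 UMIs in 2810 nuclei, and its mean ± SD overlapped with that of the straight tubule. Urothelium had a mean of 5.86 CPM from 2 UMIs in 4 libraries. No neighbours in the order of Ace levels were separated by their spread.

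The angiotensin II receptor Agtr1a was highest in mural cells and fibroblasts. Mural nuclei, the vascular smooth muscle cells and pericytes, had 435 ± 198 CPM from 141 UMIs in 201 nuclei. Fibroblasts had 349 ± 51.5 CPM from 798 UMIs in 1223 nuclei, with libraries from 273 to 401 CPM. The order of these classes was not separated, with mural cells higher in 4 of 7 libraries. Fibroblasts were above the next class, convoluted proximal tubule, in 7 of 7 libraries without overlap of mean ± SD. Relative to all retained nuclei Agtr1a was at 8.83 in mural cells and 7.75 in fibroblasts, while the 3 proximal tubule transcripts were at 0.457 to 0.676 in fibroblasts. Of fibroblast nuclei, 25.1% ± 6.81 held an Agtr1a UMI after thinning (38.2% ± 8.82 before), against 1.41% ± 1.07 of podocytes (2.65% ± 1.84 before). Median depths were 1628 UMIs in fibroblasts and 2545 in podocytes.

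Within the nephron, Agtr1a was highest in the convoluted proximal tubule, at 63.4 ± 15.7 CPM, and lower in the straight tubule, at 20.4 ± 6.95 CPM. The straight tubule was the lower of the pair in 7 of 7 libraries, with a ratio of means of 0.322 (0.19 to 0.512 over libraries). Thick ascending limb followed the cycling and immune nuclei at 41.1 ± 16.8 CPM, or 0.818 of the level of all nuclei, where the 3 proximal tubule transcripts were at 0.265 to 0.388. Principal, intercalated and endothelial nuclei lay between 26.9 and 34.8 CPM, and podocytes were lowest at 9.72 ± 8.02 CPM. Below fibroblasts every neighbour in the order overlapped with the next.

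Enpep had its highest level in podocytes, the filtration barrier cells of the glomerulus, marked by Nphs1 and Wt1. Podocytes had 673 ± 129 CPM, against 257 ± 44.7 CPM in the straight and 251 ± 31.9 CPM in the convoluted proximal tubule. Podocytes were above the straight tubule in 7 of 7 libraries without overlap, and their libraries ran from 500 to 927 CPM. The tubule segments did not differ in a set direction, with the straight segment higher in 4 of 7 libraries and a ratio of means of 1.02 (0.894 to 1.15). Relative to all nuclei Enpep stood at 3.39 in podocytes, where the proximal tubule transcripts were at 0.107 to 0.174. After thinning, 45.7% ± 5.74 of podocytes held an Enpep UMI (70.7% ± 5.89 before), against 6.16% ± 3.92 of principal cells (12.9% ± 6.51 before), whose median depth was 2013 UMIs. Endothelium had 164 ± 27.7 CPM, a ratio of 0.817 beside 0.323 to 0.666 for the proximal tubule transcripts. Immune and cycling nuclei, at 1.03 and 0.973 of the level of all nuclei, were within the range of those transcripts there.

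Mme separated the proximal tubule segments most widely among the members with over 1000 UMIs. Neprilysin transcripts stood at 661 ± 164 CPM in the straight tubule and 57.2 ± 12.2 CPM in the convoluted tubule, the lowest of the 15 classes. The straight tubule was 11.6 times the convoluted tubule by ratio of means, with 9.51 to 13.7 over the libraries. It held 12736 of the 29768 Mme UMIs, and 11170 more were in unnamed clusters. After thinning, 41.7% ± 6.0 of straight tubule nuclei held an Mme UMI (72.3% ± 8.37 before) and 4.89% ± 1.71 of convoluted tubule nuclei (19.0% ± 3.45 before). The thinned share in principal cells, the class next to last in level, was 6.90% ± 1.97, and the convoluted tubule share lay below it. How much of the convoluted tubule share came from the RNA of other nuclei was not tested. Among nuclei with at least 1000 UMIs, the median depth of the convoluted tubule was 4335 UMIs.

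Mme was also present outside the proximal tubule. Thick ascending limb had 220 ± 24.8 CPM, 0.942 of the level of all nuclei, where the 3 proximal tubule transcripts were at 0.265 to 0.388. Podocytes had 93.5 ± 16.9 CPM, a ratio of 0.394 beside 0.107 to 0.174 for those transcripts. Intercalated cells had 174 ± 34.1 CPM at a ratio of 0.715, beside 0.236 to 0.673. Distal convoluted tubule, connecting tubule, principal cells and fibroblasts had Mme ratios inside the range of the proximal tubule transcripts. Only the step from straight tubule to immune nuclei (229 ± 60.9 CPM) was wider than the spread.

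Atp6ap2 was highest in intercalated cells, the acid-base cells of the collecting duct that hold much vacuolar proton pump. Their level was 103 ± 24.2 CPM, with libraries from 64.6 to 127 CPM, against 36.7 ± 9.33 CPM in principal cells, their neighbours in the duct. Intercalated cells were above principal cells in 7 of 7 libraries without overlap, at 3.94 times the level of all nuclei. All other classes lay between 15.7 ± 4.72 CPM in the straight proximal tubule and the principal cell value, each overlapping with its neighbour. After thinning, 10.1% ± 3.13 of intercalated nuclei held an Atp6ap2 UMI (20.5% ± 4.56 before), against 1.57% ± 0.486 of straight tubule nuclei (5.26% ± 2.16 before). Median depths were 1844 and 3139 UMIs.

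**Figure D1:**
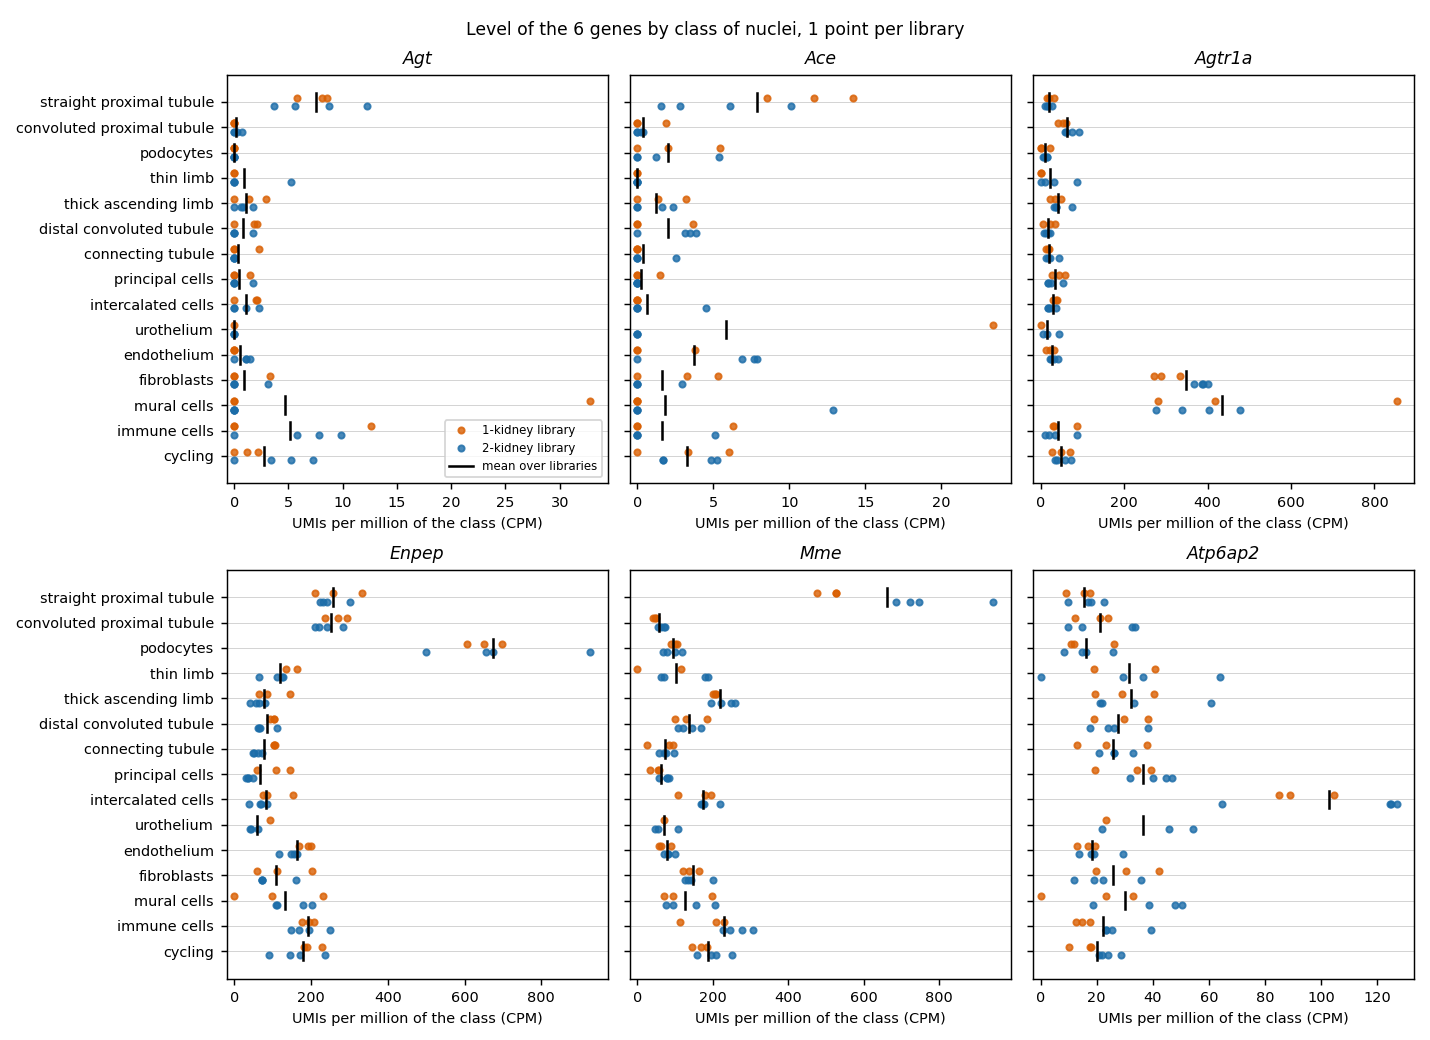
Level of each of the 6 genes (x axis, CPM, linear, own range per panel) in 15 classes of nuclei (y axis). Points are libraries with at least 10 nuclei of the class, 1-kidney in orange above 2-kidney in blue, and black bars are means over libraries. Podocytes stand apart for Enpep at 673 CPM, straight proximal tubule for Mme at 661 CPM and intercalated cells for Atp6ap2 at 103 CPM. Fibroblasts (349 CPM) and mural cells (435 CPM) stand apart for Agtr1a.

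Where a class held more than 1 cluster, the members also differed between its clusters. In intercalated cells, cluster 16 with high Slc4a1, the anion exchanger of type A cells, had Mme at 257 ± 53.7 CPM. Cluster 18 with high Slc26a4, pendrin of type B cells, had Mme at 57.9 ± 14.1 CPM, a ratio of 4.44 with the same order in 7 of 7 libraries. Agtr1a was 3.71 times and Enpep 1.95 times as high in cluster 16 as in cluster 18, again in 7 of 7 libraries. Atp6ap2 ran the other way, at 143 ± 30.4 CPM in cluster 18 and 72.2 ± 27.9 CPM in cluster 16, and was higher in cluster 18 in 7 of 7 libraries. Slc34a1 moved with the first 3 genes, at 17967 ± 8367 CPM in cluster 16 and 4718 ± 2304 CPM in cluster 18, and its part in their difference was not tested.

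In the straight proximal tubule, Mme was 1.5 times and Ace 3.09 times as high in the large cluster 2 (4510 nuclei) as in cluster 13 (607 nuclei), in 7 of 7 libraries each. Enpep and Agtr1a were higher in cluster 13 in 7 of 7 libraries, at 349 ± 49.3 against 239 ± 47.6 CPM and 40.4 ± 12.1 against 16.5 ± 6.23 CPM. Cluster 13 also had less Slc7a13, a transporter of the last proximal segment, with 1377 ± 374 CPM against 3797 ± 821 CPM in cluster 2. It had more Slc34a1, at 34568 ± 10700 against 13346 ± 5211 CPM, and more Slc5a12, at 421 against 80.6 CPM in the counts of all libraries together. Its median doublet score was 0.0689, against 0.0301 in cluster 2. The part of these in the members' differences was not tested. In the thick ascending limb, Agtr1a was 1.72 times as high in cluster 1 as in cluster 5 in 7 of 7 libraries, and Mme was 221 ± 27.4 CPM in cluster 1 and 222 ± 61.2 CPM in cluster 5. Cluster 5 had leading genes of both Pappa2-rich and Casr-rich nuclei, which fell into separate clusters when predicted doublets were kept. There, 438 nuclei with Pappa2 and Nos1 among their leading genes had Mme at 110 CPM and Agtr1a at 37.8 CPM in the counts of all libraries together. The 642 nuclei led by Tmem207, Casr and Cldn16, with little Pappa2, had Mme at 319 CPM and Agtr1a at 20.1 CPM. The remaining 2874 thick ascending limb nuclei had 225 CPM and 43.6 CPM. In that clustering Mme was lowest in the Pappa2-rich and highest in the Casr-rich nuclei, and Agtr1a was lowest in the Casr-rich nuclei. These are orders within clusters of the same libraries, and no test was run on them.

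**Figure D2:**
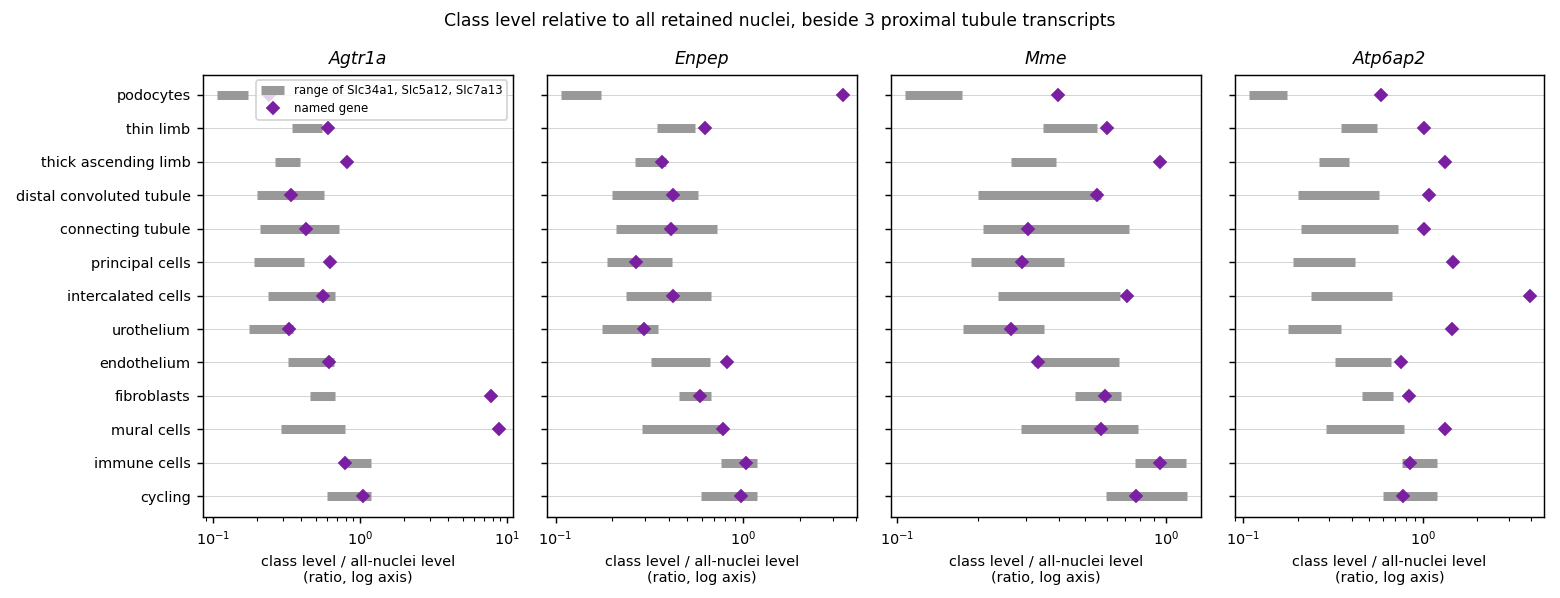
Level in each class divided by the level in all retained nuclei (x axis, ratio, log scale) for Agtr1a, Enpep, Mme and Atp6ap2. Purple diamonds are the named gene and grey bars the range of Slc34a1, Slc5a12 and Slc7a13 in 13 classes outside the proximal tubule. Enpep in podocytes (3.39), Mme in thick ascending limb (0.942) and Agtr1a in fibroblasts (7.75) lie to the right of the bars, while immune and cycling nuclei lie within or near them.

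Genes whose levels over the 15 classes most resembled each member were ranked by Pearson's r of log2(CPM + 1), among genes with at least 10 CPM in a class. For Agtr1a these were Pde8b (r = 0.945), Vegfd (0.921) and Gucy1a2 (0.918). For Enpep they were Ankrd33b (r = 0.966), St3gal5 (0.940) and Tmem159 (0.922). For Mme they were AABR07058656.1 (r = 0.922), Pamr1 (0.918) and Slco4c1 (0.907), and for Atp6ap2 Ttc1 (0.918), Atp6v1c2 (0.900) and Zfp827 (0.878). Agt (Tgfbi, RGD1305807 and Mefv, r = 0.925 to 0.950) and Ace (Pld1, Ano2 and Nup50, r = 0.771 to 0.816) did not reach 10 CPM in any class themselves. The classes share libraries and depth, so these are descriptions of 15 points.

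The design asks how 1-kidney animals differed from 2-kidney animals. No member passed an adjusted p of 0.05 in any of 8 populations by edgeR's quasi-likelihood test with Benjamini-Hochberg adjustment over all genes. Of 35 member results, 6 had an unadjusted p under 0.05. No member passed by DESeq2 either, which gave Ace no adjusted p in proximal and straight tubule. Over all genes, the called share was 0% in all retained nuclei, proximal tubule, straight tubule, convoluted tubule and intercalated cells. It was 0.0325% in podocytes, 0.185% in endothelium and 1.59% in stroma, the fibroblast and mural nuclei together. An unadjusted p under 0.05 was reached by 20.4% of genes in all retained nuclei, 16.9% in proximal tubule, 15.1% in straight tubule, 12% in convoluted tubule and 14.2% in intercalated cells, where 1, 1, 2, 1 and 1 members did so. In podocytes, endothelium and stroma, 9.63%, 12.8% and 17.9% of genes did, and 0 members. Groups that did not overlap, with 1-kidney higher, were found for 1 member in proximal tubule and 1 in endothelium. The same share over all genes was 8.09% in all retained nuclei, 7.88% in proximal, 7.53% in straight and 5.12% in convoluted tubule, 4.41% in podocytes, 5.23% in endothelium, 7.34% in stroma and 4.87% in intercalated cells. With 1-kidney lower, 1 member was found in each of all retained nuclei, proximal, straight and convoluted tubule. The share over all genes was 10.9%, 6.58%, 6.37% and 6.31% in those populations, 5.79% in podocytes, 6.64% in endothelium, 9.73% in stroma and 6.97% in intercalated cells. The counts were too low for a test of Agt and Ace in convoluted tubule, podocytes, endothelium, stroma and intercalated cells, of Agtr1a in podocytes, and of Atp6ap2 in podocytes and stroma.

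Mme was the member with the smallest p, in the straight proximal tubule. Its level there was 528, 476 and 527 CPM in 1-kidney replicates 1 to 3, against 684, 723, 944 and 745 CPM in 2-kidney replicates 1 to 4. All 1-kidney libraries were below all 2-kidney libraries. The log2 fold change was −0.61 ± 0.18 (SE, unadjusted p = 0.00461, adjusted p = 0.235 by edgeR), a fold of 0.657 with 2 SE bounds of 0.514 and 0.840. Of all genes tested in this segment, 6.37% were lower in every 1-kidney library than in any 2-kidney library. The set code in the library names is P1117B for 2-kidney replicates 3 and 4 and P1117 for the other 5 libraries, and what it stands for is not given. Within P1117 the log2 fold change was −0.47 ± 0.17 (adjusted p = 0.412 by edgeR), and in cluster 2 alone −0.58 ± 0.18. Over all alternatives tried for this value the adjusted p by edgeR or DESeq2 ran from 0.054 to 0.59.

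In the convoluted tubule Mme was 45.6, 50.1 and 42.7 CPM in 1-kidney libraries, against 71.0, 63.5, 73.2 and 54.3 CPM in 2-kidney libraries. The groups again did not overlap, as for 6.31% of genes in that direction, with a log2 fold change of −0.49 ± 0.22 (adjusted p = 0.415 by edgeR). The thinned share of nuclei with an Mme UMI in this segment was below that of principal cells, as given above. Over all retained nuclei Mme was 208, 190 and 205 CPM in 1-kidney libraries, against 223, 293, 280 and 255 CPM in 2-kidney libraries (log2 fold change −0.37 ± 0.15, edgeR adjusted p = 0.225), without overlap, as for 10.9% of genes. In such a sum, fewer nuclei of a type and less RNA per nucleus cannot be told apart. Without the unnamed clusters the log2 fold change was −0.26 ± 0.15.

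Among segment markers in the straight tubule, only Slc5a12 of those listed here separated the groups, in the direction opposite to Mme. Slc5a12, a marker of the convoluted segment, was at 209 ± 46.4 CPM in straight tubule nuclei of the 1-kidney libraries and 101 ± 17.7 CPM in those of the 2-kidney libraries (SD, n = 3 and 4), without overlap. Slc34a1 was at 20292 ± 3036 and 13907 ± 6172 CPM, and Slc7a13 at 3282 ± 471 and 3507 ± 985 CPM, in the same order of groups, with overlap. Slc5a12 was also higher without overlap in convoluted tubule nuclei, at 1400 ± 167 CPM in 1-kidney and 866 ± 116 CPM in 2-kidney libraries. The same held outside the proximal tubule, in endothelium (458 to 482 against 161 to 290 CPM), intercalated cells (416 to 728 against 193 to 287 CPM) and stroma (411 to 627 against 136 to 398 CPM). In podocytes the groups overlapped. The Slc5a12 difference was thus not particular to the straight tubule or to the proximal tubule. The part of these markers in the Mme values was not tested.

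Ace did not pass the test, but in the proximal tubule each 1-kidney library lay above each 2-kidney library. It stood at 9.15, 7.21 and 11.2 CPM in 1-kidney libraries, against 1.12, 7.04, 1.36 and 3.62 CPM in 2-kidney libraries. The log2 fold change was 1.44 ± 0.52 (unadjusted p = 0.0182, adjusted p = 0.250 by edgeR), and 7.88% of genes were higher in this way without overlap. The gap between the lowest 1-kidney and the highest 2-kidney library was small. Convoluted nuclei, where Ace was close to 0, made up 15.4% ± 1.55 of proximal tubule nuclei in 1-kidney and 37.3% ± 12.8 in 2-kidney libraries (exact permutation test, two-sided p = 0.0571, where the smallest possible for these values was 0.0286). Within P1117 these shares were 15.4% ± 1.55 and 27.3% ± 8.84 (exact permutation p = 0.1, the smallest possible there), and with nuclei classed singly by marker score 47.2% ± 5.62 and 52.6% ± 6.38. In the straight tubule alone Ace was 11.7, 8.50 and 14.2 CPM in 1-kidney libraries, against 1.52, 10.1, 2.80 and 6.07 CPM in 2-kidney libraries. There the groups overlapped, with a log2 fold change of 1.07 ± 0.47 (adjusted p = 0.309 by edgeR). Within P1117 the log2 fold change was 0.98 ± 0.52 in the proximal tubule and 0.80 ± 0.55 in the straight tubule.

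In endothelium Ace was 0, 0 and 3.77 CPM in 1-kidney libraries, against 0, 6.88, 7.85 and 7.65 CPM in 2-kidney libraries, too few UMIs to be tested. The lowest level in both groups was 0.

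**Figure D3:**
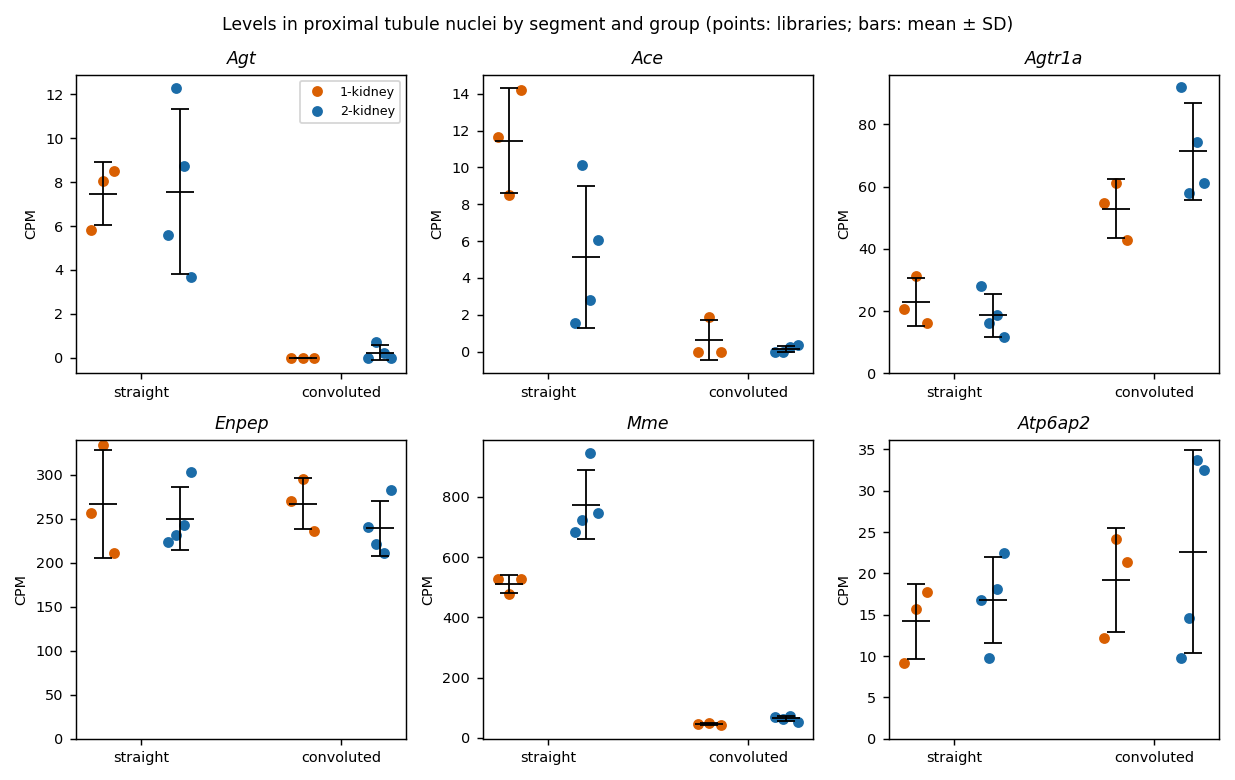
CPM (y axis, linear) of the 6 genes in straight and convoluted proximal tubule nuclei, with 1-kidney libraries (orange) left of 2-kidney libraries (blue); bars are mean ± SD. Mme in the straight tubule runs from 476 to 528 CPM in 1-kidney and from 684 to 944 CPM in 2-kidney libraries, and the other members overlap there.

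Agt had the fold change nearest to 1 among the members in the straight tubule. In the straight tubule it was 5.83, 8.05 and 8.52 CPM in 1-kidney libraries, against 5.59, 12.3, 8.72 and 3.70 CPM in 2-kidney libraries. The groups overlapped fully, with a log2 fold change of −0.0048 ± 0.41 (adjusted p = 0.997 by edgeR). The 2 SE bounds of the fold, 0.564 and 1.76, still allow a sizeable change in either direction.

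Agtr1a in stroma was 287, 291 and 406 CPM in 1-kidney libraries, against 396, 375, 403 and 372 CPM in 2-kidney libraries. The value of 1-kidney replicate 3 was the highest, and the other 1-kidney values lay below the 2-kidney range. The log2 fold change was −0.20 ± 0.20 (adjusted p = 0.665 by edgeR). In fibroblasts alone Agtr1a was 298 ± 31.9 CPM in 1-kidney and 386 ± 13.5 CPM in 2-kidney libraries (SD). These groups did not overlap, with 273 to 334 CPM against 369 to 401 CPM. Fibroblasts were not tested alone, and their share of genes without overlap was not counted. In mural cells the means ran the other way, at 518 ± 298 and 373 ± 86.5 CPM, with overlap. There 1-kidney replicate 3 had 853 CPM, the highest value, from 26 nuclei. In the convoluted tubule Agtr1a was 52.9 ± 9.38 CPM in 1-kidney and 71.3 ± 15.5 CPM in 2-kidney libraries (SD, n = 3 and 4), with overlap and a log2 fold change of −0.41 ± 0.24 (adjusted p = 0.501 by edgeR).

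Enpep in podocytes was 697, 650 and 607 CPM in 1-kidney libraries, against 675, 927, 656 and 500 CPM in 2-kidney libraries. The 1-kidney values fell inside the 2-kidney range, with a log2 fold change of −0.10 ± 0.21 (adjusted p = 0.906 by edgeR) and 2 SE bounds of the fold of 0.698 and 1.25. In endothelium Enpep was 199, 170 and 192 CPM in 1-kidney libraries, against 165, 156, 117 and 149 CPM in 2-kidney libraries. These groups did not overlap, as for 5.23% of genes in that direction, and the log2 fold change was 0.35 ± 0.19 (adjusted p = 0.454 by edgeR). Transcripts of the proximal tubule went the same way in endothelium. Of 17 proximal tubule markers, 15 had a higher mean in 1-kidney libraries, 6 of them without overlap. The summed level of the 17 ran from 23984 to 27496 CPM in 1-kidney and from 8865 to 21176 CPM in 2-kidney libraries. Slc34a1 alone was the largest part of these sums, at 16131 to 19392 against 4505 to 14523 CPM. Among other peptidases, the meprin subunits Mep1a and Mep1b had log2 fold changes of 0.49 ± 0.22 and 0.44 ± 0.23, and Anpep of 0.26 ± 0.26 (edgeR adjusted p = 0.366, 0.427 and 0.703). Mme and Folh1 went the other way, at −0.20 ± 0.23 and −0.20 ± 0.28 (edgeR adjusted p = 0.749 and 0.802). The part of proximal tubule transcripts in the Enpep values was not tested. In intercalated cells it was 74.8, 153 and 86.8 CPM in 1-kidney libraries, against 70.3, 68.0, 38.9 and 85.6 CPM in 2-kidney libraries. The groups overlapped there, and the log2 fold change was 0.75 ± 0.29 (unadjusted p = 0.0178, adjusted p = 0.271 by edgeR). Here 14 of the 17 proximal tubule markers had a higher mean in 1-kidney libraries, 4 without overlap. Summed levels ran from 19172 to 26010 CPM in 1-kidney and from 9370 to 21688 CPM in 2-kidney libraries. Slc34a1 was again the largest part, at 12643 to 18398 against 5002 to 15126 CPM. Mep1a had a log2 fold change of 0.64 ± 0.23 and Mep1b of 0.62 ± 0.33 (edgeR adjusted p = 0.245 and 0.398). Anpep was at 0.07 ± 0.28, while Mme and Folh1 went the other way, at −0.17 ± 0.23 and −0.21 ± 0.27 (edgeR adjusted p = 0.927, 0.752 and 0.749). The part of these transcripts in the Enpep values was not tested.

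Atp6ap2 in intercalated cells was 105, 85.0 and 88.8 CPM in 1-kidney libraries, against 64.6, 127, 125 and 125 CPM in 2-kidney libraries. The 2-kidney libraries held both the highest and the lowest value, and the log2 fold change was −0.25 ± 0.26 (adjusted p = 0.678 by edgeR). In all retained nuclei it was 17.1, 20.1 and 23.6 CPM in 1-kidney libraries, against 20.1, 24.8, 31.2 and 36.1 CPM in 2-kidney libraries, where the P1117B libraries had the highest levels. In the proximal tubule the log2 fold change of −0.40 ± 0.34 turned to 0.29 ± 0.28 within P1117.

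**Figure D4:**
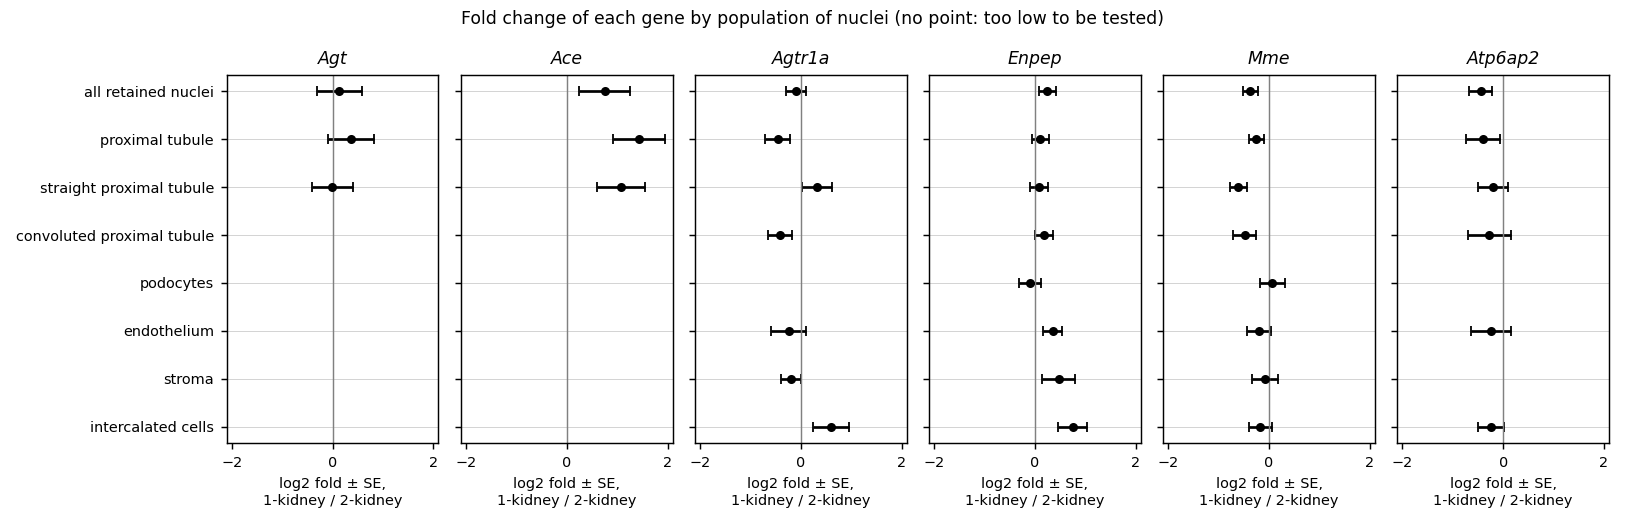
Log2 fold change of 1-kidney over 2-kidney libraries (x axis) for each gene in 8 populations of nuclei (y axis); points are edgeR estimates and bars 1 SE. Mme lies left of 0 in straight tubule (−0.61) and Ace right of 0 in proximal tubule (1.44), and no estimate passed the adjusted threshold.

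The other pathway genes were a list of 28 symbols, 30 gene rows because Klk1 has 3. None passed in either direction in any of the 8 populations by edgeR, with 16 tested in the proximal tubule and 22 in all retained nuclei. At an unadjusted p under 0.05 there were 3 of 16 in the proximal tubule and 4 of 22 in all retained nuclei, close to the 16.9% and 20.4% of all genes. The median log2 fold change of those tested was 0.05 in the proximal tubule and 0.03 in all retained nuclei, beside −0.01 for all genes in both. In the proximal tubule 3 of them had groups that did not overlap, 1 higher and 2 lower, where 7.88% and 6.58% of all genes did so. Folh1, glutamate carboxypeptidase II, was at 92.3 ± 6.31 CPM in 1-kidney and 182 ± 24.0 CPM in 2-kidney libraries (SD, n = 3 and 4; log2 fold change −1.001 ± 0.16, edgeR adjusted p = 0.210). Its level was 53.1 ± 18.4 CPM in straight against 341 ± 91.7 CPM in convoluted tubule, and in the straight tubule alone its groups overlapped. Ece1, an endothelin converting enzyme, was lower in every 1-kidney library, and Atp6ap1, another proton pump accessory protein, higher. Their log2 fold changes were −0.36 ± 0.14 and 0.38 ± 0.18 (edgeR adjusted p = 0.269 and 0.306).

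Anpep, aminopeptidase N, was higher in the straight than in the convoluted tubule in 7 of 7 libraries, at a ratio of 2.81. In the straight tubule Anpep was 285 ± 65.8 CPM in 1-kidney and 343 ± 85.1 CPM in 2-kidney libraries (SD, n = 3 and 4). It did not pass the test, with a log2 fold change of −0.27 ± 0.21 (edgeR adjusted p = 0.540).

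Agtr2, the type 2 receptor, had 0 UMIs in 122341137, which allows a level of up to 0.0245 CPM. Agtr1b, the second type 1 receptor gene of rats, was at 162 ± 214 CPM in mural cells. In stroma it had the smallest adjusted p of the list (0.0816 by edgeR), and it was chosen for mention after its values were seen. It was at 13.1, 11.5 and 18.3 CPM in 1-kidney libraries and 43.7, 34.1, 130 and 44.8 CPM in 2-kidney libraries. The groups did not overlap, as for 9.73% of genes in that direction. Stroma of the 1-kidney libraries held 76596, 347408 and 219102 UMIs of all genes, so their Agtr1b values rest on few UMIs. The value of 130 CPM came from 2-kidney replicate 3, of set P1117B. Agtr1a and Agtr1b are close copies, and reads that match both could have been lost or split by the authors' counting.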

How the data were processed

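The authors deposited UMI counts per gene and barcode for each library, made with Cell Ranger, per the file headers. The submitters' processing notes give version 7.0. No genome build is stated there. No column of values lacked a sample.

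Barcodes under 200 genes or over 5% mitochondrial UMIs were dropped. Scrublet (in scanpy 1.11.5) marked at most 4 barcodes per library by its automatic threshold and so had not worked. The highest scores, 0.8% per 1000 barcodes with ties, were removed instead (1908 barcodes). Clusters came from 2000 variable genes, 30 components, 20 neighbours and Leiden at resolution 1. They were named where at least 3 markers were 2-fold above the median of the other clusters, with a mean log2 fold of at least 1. A cluster where an unrelated cell type scored above 0.5 of this mean was left unnamed, which applied to all 4 unnamed clusters. The doublet and naming rules were set after seeing the data. Raw counts were summed per library and population and tested with edgeR 4.0.16 (TMM, filterByExpr, quasi-likelihood, two-sided) in R 4.3.3, and with DESeq2 1.42.0. CPM are scaled to each library's total for the population, and a fold change is 1-kidney over 2-kidney. Classes needed 50 nuclei in every library to be tested, and 10 in a library to give a level. Floors take 3 counts over the class. Floors cover counting error only, and the depth of each library sets the precision of its values. The 2 SE bounds use the standard error of the edgeR fit, which includes the spread between libraries. Replicate numbers follow accession order. On simulated counts for these comparisons, 92.9% to 100% of 4-fold and 28% to 56.7% of 2-fold changes were recovered, with 4 to 14 false calls. The changed genes were drawn from all genes tested and no set effect was simulated. The rates need not hold for genes with few UMIs, such as Agt and Ace.

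The members, pathway list and markers were chosen with earlier results of these data known. Named were the 6 members, Anpep, any other pathway gene that passed or whose groups did not overlap in proximal tubule, and the 3 most alike genes per member. Agtr1b, Agtr2, Mep1a and Mep1b were named outside this rule. Some genes that the rule names are not reported here. Alternatives were other size factors, DESeq2, no filter on low counts, leaving out or modelling the P1117B set, keeping predicted doublets, single-nucleus classes by marker score, unfiltered barcodes and leaving out each library. Sums of named classes alone and of the largest straight tubule cluster alone were added after seeing the data, as were the proximal tubule marker sums in other classes.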

Additional observations from a re-analysis of the deposited data

Results flagged for a closer look

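In 3 of 36 groups of 4 libraries checked, a library stood farther from the others than Dixon's 95% bound for the gap over the range, which chance gives in about 1 in 20 groups. Enpep was at 210 CPM in all retained nuclei of 2-kidney replicate 4, against 166 to 169 CPM in the other 2-kidney libraries (gap over range 0.939). The same library had Enpep at 294 CPM in the proximal tubule, against 225 to 228 CPM (gap over range 0.957). Atp6ap2 was at 64.6 CPM in intercalated cells of 2-kidney replicate 1, against 125 to 127 CPM in the other 2-kidney libraries (gap over range 0.960).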

How the results depend on the processing

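Of 502 alternative values of the members' log2 fold changes, 463 kept their direction and did not pass the threshold, 39 reversed, and 0 passed. Every reversal was of a result that did not pass, and the cause was not tested. Without set P1117B and with the set as a term, Agt turned to −0.17 and −0.15 in all retained nuclei and to −0.17 in both in the proximal tubule. Atp6ap2 turned to 0.29 in both in the proximal tubule, 0.20 and 0.22 in straight tubule, 0.63 in both in convoluted tubule, and 0.078 and 0.077 in endothelium. Mme in stroma turned to 0.10 and 0.13. With nuclei classed by marker score, Agtr1a turned to −0.077 and Agt to 0.09 in straight tubule, and Agtr1a to 0.11 in endothelium. With predicted doublets kept, Mme turned to −0.12 in podocytes, and Agtr1a to 0.042 in endothelium and 0.015 in stroma. With no filter on low counts Mme in podocytes was −0.017. Leaving out each library in turn gave ranges across 0 for Agtr1a (−0.194 to 0.082) and Agt (−0.18 to 0.57) in all retained nuclei and for Enpep in proximal tubule (−0.035 to 0.232). In straight tubule this held for Enpep (−0.089 to 0.22) and Agt (−0.26 to 0.36), and in podocytes for Mme (−0.022 to 0.216) and Enpep (−0.23 to 0.12). It also held for Atp6ap2 in endothelium (−0.385 to 0.024), Mme (−0.30 to 0.10) and Enpep (−0.21 to 0.71) in stroma, and Mme in intercalated cells (−0.37 to 0.07).

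Counts of all genes called, 0 in all retained nuclei, proximal, straight and convoluted tubule and intercalated cells, moved with the setting. DESeq2 called 480 genes in all retained nuclei, 127 in proximal, 79 in straight and 29 in convoluted tubule, 43 in endothelium and 20 in intercalated cells. With no filter edgeR called 27 in proximal, 90 in straight and 107 in convoluted tubule, 58 in podocytes, 154 in endothelium, 315 in stroma and 139 in intercalated cells. Without set P1117B it called 6 in proximal, 7 in straight and 7 in convoluted tubule, 0 in podocytes, 30 in endothelium and 3 in intercalated cells. With the set as a term it called 4 in straight and 1 in convoluted tubule, 0 in podocytes, 30 in endothelium and 1 in intercalated cells. Kept doublets gave 1 in podocytes, 5 in endothelium and 42 in stroma, and marker-score classes 48 in endothelium and 279 in stroma. Leaving out a library gave 0 to 0 in all retained nuclei and proximal tubule, 0 to 2 in straight and in convoluted tubule, 0 to 158 in podocytes, 0 to 126 in endothelium, 10 to 230 in stroma and 0 to 125 in intercalated cells. The convoluted share of proximal tubule nuclei, −22.0 points (1-kidney minus 2-kidney), ranged from −27.4 to −17.7 points on leaving out a library, was −11.9 points without set P1117B and −5.36 points by marker score. No paired analysis was possible because the labels give the groups no shared replicate numbers. Agt and Ace rest on 348 and 334 UMIs, which limits both.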
